A study of Mus musculus with 3 samples.

Results

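The glutathione S-transferases described here are 10 cytosolic enzymes of mouse liver: the alpha class genes Gsta1, Gsta2, Gsta3 and Gsta4, the mu class genes Gstm1, Gstm2, Gstm3 and Gstm4, the pi class gene Gstp1 and the theta class gene Gstt1. They were taken by symbol from the deposited expression tables. Each of the 10 had 1 row with a valid estimate in every table, out of 23356 symbols in all. The tables hold liver RNA of mice aged 16 weeks on a mixed C57BL6J and FVB background, sequenced after removal of ribosomal RNA, with 1 library for each of 3 groups. Wild-type mice fed ad libitum are called wt AL. Mice with 1 delta and 1 null allele of Ercc1 (Ercc1 delta/-) were fed ad libitum (Ercc1 AL) or kept under diet restriction (Ercc1 DR). No restricted wild-type library is among them, so every value under restriction is from the mutant. Whether a library is from 1 animal or a pool is not in the labels, which give neither the sex nor the amount of food.

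Glutathione S-transferases join the thiol of glutathione to electrophilic compounds such as epoxides, quinones and the aldehydes of lipid peroxidation, which makes them soluble and ready for export into bile or blood. The classes differ in substrate: alpha enzymes also reduce lipid hydroperoxides, GSTA4 favours 4-hydroxynonenal, the mouse GSTA3 enzyme detoxifies the epoxide of aflatoxin, mu enzymes act on many aromatic electrophiles, and theta enzymes act on small halogenated compounds. Hepatocytes are rich in these proteins. Their genes are known to respond to NRF2, a transcription factor active under electrophilic stress, and to the xenobiotic receptors CAR and PXR. ERCC1 is the partner of the XPF nuclease in nucleotide excision repair and crosslink repair.

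Levels are in FPKM, a fragment count scaled to the length of the transcript and the size of the library, each deposited with a lower and an upper bound. The sources used here do not state what the bounds cover. They come from 1 library each and so hold no comparison between libraries of a group, and no test between groups, p-value or SD is given. Interval widths imply a depth of 19.01 M to 25.1 M fragments per library. Ercc1 itself was at 0.461 FPKM in wt AL, 0.573 in Ercc1 AL and 0.475 in Ercc1 DR, with overlapping bounds. A value over the whole gene does not separate intact from mutant transcripts, so it does not check the labels. Hepatocyte markers were abundant in each library, with 9 of 10 at 1 FPKM or more and the tenth, Alb, without an estimate. Kidney and lymphocyte markers were all below 1 FPKM in the 3 libraries. Markers of other blood cells and of pancreas were not. In the order wt AL, Ercc1 AL, Ercc1 DR, the erythroid marker Hba-a2 was at 145, 72.3 and 151 FPKM. The neutrophil marker Mpo was at 6.41, 3.50 and 1.24 FPKM, and the pancreas marker Cela1 at 1.18, 3.53 and 1.41 FPKM.

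The libraries differed in their general level. Over 9053 genes with at least 1 FPKM in all 3, the median log2 ratio of FPKM was 0.49 for Ercc1 AL against wt AL, 0.34 for Ercc1 DR against Ercc1 AL and 0.78 for Ercc1 DR against wt AL. Log2 ratios below are of FPKM + 1 after these medians were set to 0, unless called as deposited. Adding 1 to each value makes the ratio of a low gene smaller than that of its FPKM. The range given after a ratio is from the outer ends of both deposited intervals. A gene is counted as higher or lower from a 2-fold ratio on that scale, among genes with at least 1 FPKM in either library. All 10 genes passed this minimum in each comparison, Gsta1 only through the other library in the comparisons with wt AL, where it was at 0.845 FPKM.

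The 10 genes together came to 282 FPKM in wt AL, 428 in Ercc1 AL and 824 in Ercc1 DR as deposited. After rescaling, the sum in Ercc1 DR was 1.52 times that in Ercc1 AL, and the sum in Ercc1 AL was 1.08 times that in wt AL. The make-up of the sum differed between libraries. The mu class held 30.0% of it in wt AL, 25.9% in Ercc1 AL and 49.8% in Ercc1 DR. The pi gene Gstp1 held 30.2%, 39.6% and 17.6%, in the same order. Gsta3 was nearly the whole of the alpha class in the ad libitum libraries, since Gsta1, Gsta2 and Gsta4 together held 3.65% and 3.82% of the sum there and 11.02% in Ercc1 DR. These shares are within a library and do not depend on the scaling between libraries.

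**Figure D1:**
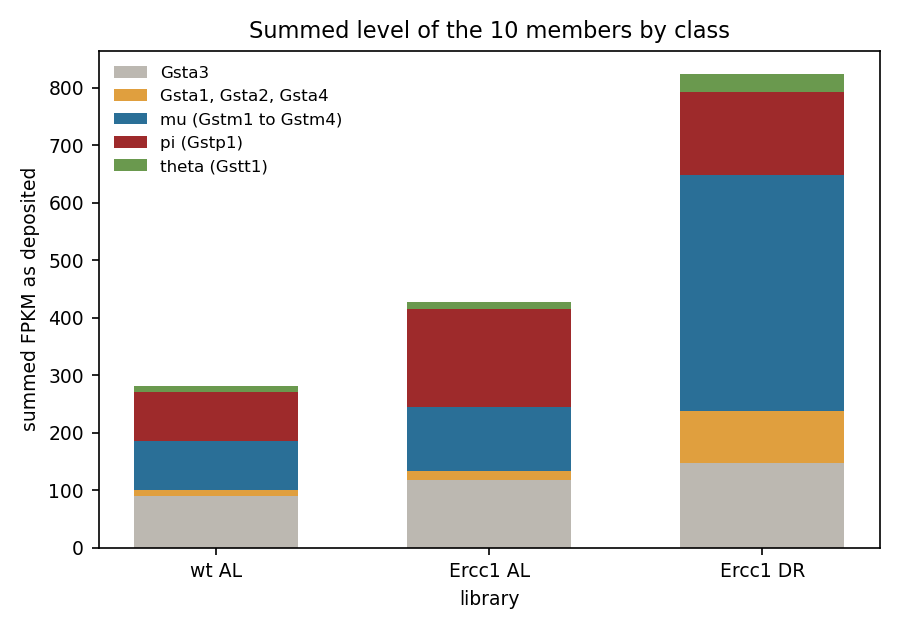
Summed FPKM as deposited of the 10 genes in each library (vertical axis), stacked by class. The bars reach 282, 428 and 824 FPKM, and the mu class segment is the largest in Ercc1 DR.

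Under restriction, 6 of the 10 genes were at least 2-fold higher than in the freely fed mutant, and none was lower. They were Gsta2, Gsta1, Gstm3, Gsta4, Gstm2 and Gstm1. Of all 12295 genes measured in that comparison, 3.07% were higher and 11.9% lower. The median of the 10 log2 ratios was 1.52, beside -0.06 over all measured genes. As deposited, 7 of the 10 were higher, Gstt1 being the seventh, beside 6.47% of all genes, and 8.65% of all genes were lower. Between Ercc1 AL and wt AL none of the 10 passed the threshold in either direction, before or after rescaling.

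**Figure D2:**
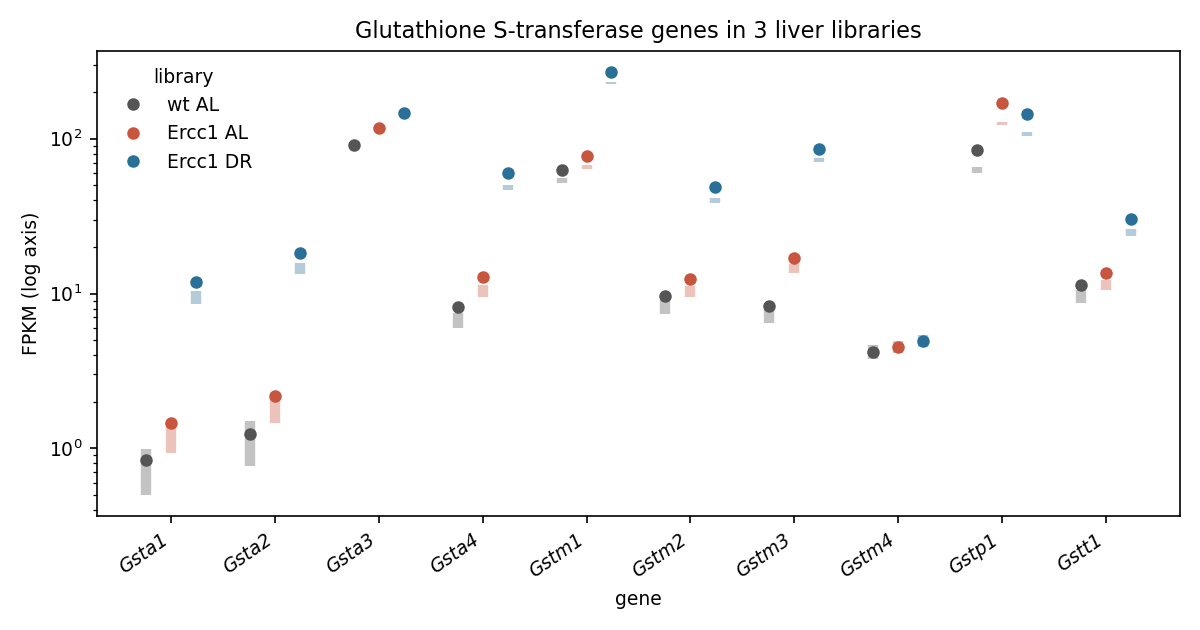
FPKM of each gene (log axis) as a point for each of the 3 libraries, with the deposited interval of the same library as a pale bar. The blue Ercc1 DR points of Gsta1, Gsta2, Gsta4, Gstm1, Gstm2 and Gstm3 stand well above the other 2 libraries, while the points of Gstm4 lie between 4.204 and 4.94 FPKM.

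In the alpha class, Gsta1 and Gsta2 were the members with the lowest levels in the ad libitum libraries. They lie in 1 cluster with Gsta4 on chromosome 9, Gsta1 at chr9:78230669-78242683 on the plus strand and Gsta2 at chr9:78331020-78347145 on the minus strand (mm10). Gsta1 was at 0.845 FPKM in wt AL (interval 0.501 to 0.988), 1.45 FPKM in Ercc1 AL (0.935 to 1.52) and 11.9 FPKM in Ercc1 DR (8.59 to 10.4). Gsta2 was at 1.24 FPKM in wt AL (0.770 to 1.499), 2.17 FPKM in Ercc1 AL (1.45 to 2.12) and 18.4 FPKM in Ercc1 DR (13.4 to 15.7). Both were high in the restricted library alone. There, the intervals of Gsta1 and Gsta2 lay far above those of the other libraries, and between Ercc1 AL and wt AL the rescaled intervals overlapped.

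Against Ercc1 AL, the log2 ratio of Gsta2 in Ercc1 DR was 2.33 (1.94 to 2.51), the 40th highest of 12295 genes. That of Gsta1 was 2.14 (1.67 to 2.33), the 44th highest. Without a pseudocount the rescaled FPKM was 6.51 times higher for Gsta1 and 6.69 times for Gsta2. Against wt AL the log2 ratios were 2.25 for Gsta1, measured there only through Ercc1 DR, and 2.51 for Gsta2.

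These 2 genes belong to a group of close copies, and their separate values are uncertain. In the GENCODE M21 annotation, the coding sequence of Gsta1 was 99.7% identical to that of its neighbour Gm3776 and 97.5% identical to that of Gsta2, while that of Gsta2 was 98.5% identical to Gm10639. Of the stretches of 50 bases in the Gsta1 transcript, 89.7% also occurred in a transcript of another gene, and 64.2% of those of Gsta2 did. Gsta1 and Gm3776 stood in nearly the same ratio in every library (1.02 in wt AL, 1.02 in Ercc1 AL and 1.03 in Ercc1 DR). Summed over Gsta1, Gsta2, Gm3776 and Gm10639, the level was 3.34 FPKM in wt AL, 5.90 in Ercc1 AL and 47.6 in Ercc1 DR, 6.39 times the Ercc1 AL level after rescaling. The sum over the 4 copies was thus also high in Ercc1 DR. How fragments that fit several copies were counted is not given in the sources used here, so the sum may depend on it too.

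The promoter windows of Gsta1 and Gsta2 are shown because the 2 copies were high in the same library and both genes have a window in the RefSeq table. Each runs from 250 bases before to 50 after the start on GRCm38.p6, 5′ to 3′ in the direction of the gene. Capitals mark the 4 aligned runs of at least 15 bases that are identical in both, 93 bases in all.
Gsta1 (chr9:78230419-78230718, plus strand): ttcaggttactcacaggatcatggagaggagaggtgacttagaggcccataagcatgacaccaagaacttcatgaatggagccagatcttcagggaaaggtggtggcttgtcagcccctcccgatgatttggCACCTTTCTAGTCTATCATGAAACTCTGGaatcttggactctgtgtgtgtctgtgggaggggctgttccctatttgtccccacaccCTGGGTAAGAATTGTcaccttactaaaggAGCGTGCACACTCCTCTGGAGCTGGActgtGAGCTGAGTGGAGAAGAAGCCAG
Gsta2 (chr9:78347096-78347395, minus strand): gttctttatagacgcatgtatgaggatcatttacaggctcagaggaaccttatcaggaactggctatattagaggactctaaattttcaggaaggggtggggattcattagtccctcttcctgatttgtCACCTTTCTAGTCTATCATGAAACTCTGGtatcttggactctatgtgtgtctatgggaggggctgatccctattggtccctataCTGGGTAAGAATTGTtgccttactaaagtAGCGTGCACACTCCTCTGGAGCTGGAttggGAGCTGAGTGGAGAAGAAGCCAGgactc
The windows were 77.3% identical over their whole length. The longest shared run had 29 bases. Gm3776 had a window 94.7% identical to that of Gsta1.

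Gsta4, whose enzyme removes 4-hydroxyalkenals, lies beside Gsta1 at chr9:78191966-78209349. It was at 8.19 FPKM in wt AL (6.02 to 7.47), 12.7 FPKM in Ercc1 AL (9.56 to 11.3) and 60.5 FPKM in Ercc1 DR (46.7 to 50.5). Again only the restricted library was high. The log2 ratio was 1.84 (1.63 to 1.97) in Ercc1 DR against Ercc1 AL, 2.003 against wt AL, and 0.13 between the ad libitum libraries. Gsta4 shared no stretch of 50 bases with a transcript of another gene.

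Gsta3, on chromosome 1 at chr1:21240589-21265559 and apart from the other alpha genes, was the alpha member with the highest level in each library. Its level was 90.7 FPKM in wt AL (88.3 to 94.1), 118 FPKM in Ercc1 AL (117 to 122) and 147 FPKM in Ercc1 DR (146 to 152). As deposited it was higher in each mutant library than in wt AL, by log2 ratios of 0.38 and 0.69. After rescaling the sign turned, with -0.11 in Ercc1 AL and -0.08 in Ercc1 DR against wt AL. Between Ercc1 DR and Ercc1 AL the ratio was -0.02 (-0.08 to 0.05) after rescaling and 0.32 as deposited. Gsta3 therefore kept close to the general level of each library. Within a library, Gsta4 was at 0.0903 of the Gsta3 level in wt AL, 0.108 in Ercc1 AL and 0.411 in Ercc1 DR, so the 2 alpha genes differed unequally whatever the scaling.

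The mu genes lie in 1 cluster on chromosome 3. Gstm1 (chr3:108012250-108017973, minus strand) had the highest level of the mu class in each library, at 62.4 FPKM in wt AL (51.7 to 55.6), 76.8 FPKM in Ercc1 AL (63.8 to 67.3) and 270.1 FPKM in Ercc1 DR (226 to 233). Gstm2 (chr3:107981702-107986436) was at 9.64 FPKM in wt AL (7.32 to 9.04), 12.3 FPKM in Ercc1 AL (9.51 to 11.2) and 48.6 FPKM in Ercc1 DR (38.3 to 41.6). Both were high in the restricted library. Between the ad libitum libraries the log2 ratio was -0.19 for Gstm1, with rescaled intervals apart, and -0.13 for Gstm2, with rescaled intervals that overlapped, and as deposited the ratios were 0.29 and 0.33. The log2 ratio in Ercc1 DR against Ercc1 AL was 1.47 (1.40 to 1.52) for Gstm1 and 1.57 (1.37 to 1.70) for Gstm2.

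Gstm3 (chr3:107963696-107969174) was at 8.24 FPKM in wt AL (6.46 to 7.95), 17.0 FPKM in Ercc1 AL (13.7 to 15.4) and 86.3 FPKM in Ercc1 DR (70.6 to 74.7). Of the mu members, it alone had rescaled intervals apart and higher both from wt AL to Ercc1 AL and from there to Ercc1 DR. Gstm6 and Gstm7, mu genes of the same cluster outside the 10, were apart and higher at both steps too. Their log2 ratios at these steps were 0.41 and 0.41 for Gstm6, and 0.38 and 0.51 for Gstm7. The log2 ratio of Gstm3 was 0.51 (0.26 to 0.70) in Ercc1 AL against wt AL. It was 1.95 (1.80 to 2.04) in Ercc1 DR against Ercc1 AL and 2.50 (2.26 to 2.61) in Ercc1 DR against wt AL. Relative to Gstm1 in the same library, Gstm3 stood at 0.132 in wt AL, 0.222 in Ercc1 AL and 0.320 in Ercc1 DR.

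Gstm4 (chr3:108040408-108044859), the neighbour of Gstm1, was at 4.204 FPKM in wt AL (3.79 to 4.62), 4.54 FPKM in Ercc1 AL (4.16 to 4.93) and 4.94 FPKM in Ercc1 DR (4.51 to 5.37). As deposited the highest of the 3 values was 1.17 times the lowest, and the intervals overlapped. After rescaling the log2 ratio was -0.31 in Ercc1 AL and -0.45 in Ercc1 DR against wt AL, and as deposited it was 0.09 and 0.19. Gstm1 was 14.9 times the Gstm4 level in wt AL, 16.9 times in Ercc1 AL and 54.7 times in Ercc1 DR. Coding sequences of these 4 mu genes were 79.1% to 89.5% identical, and 23.1% of the stretches of 50 bases in Gstm1, 28.8% in Gstm3 and 9.36% in Gstm2 also occurred in a transcript of another gene, some of them pseudogenes. None of those of Gstm4 did.

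Gstp1, the pi class enzyme (chr19:4035411-4037912, minus strand), had a different order from the alpha and mu genes. Its level was 84.9 FPKM in wt AL (60.4 to 65.7), 169.5 FPKM in Ercc1 AL (122 to 128) and 145 FPKM in Ercc1 DR (104 to 110.2). It was highest in the freely fed mutant. The log2 ratio was 0.50 (0.39 to 0.59) in Ercc1 AL against wt AL, 0.99 as deposited. In Ercc1 DR against Ercc1 AL it was -0.56 (-0.63 to -0.48), and -0.22 as deposited. Between Ercc1 DR and wt AL it was -0.01 (-0.12 to 0.08) after rescaling and 0.77 as deposited.

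Gstp1 has a close copy beside it, Gstp2, with a coding sequence 98.1% identical, and 62.3% of the stretches of 50 bases of Gstp1 occur in Gstp2. Gstp2 was at 61.8, 123.6 and 75.4 FPKM, in the order wt AL, Ercc1 AL, Ercc1 DR. Its log2 ratio was 0.50 in Ercc1 AL against wt AL and -1.04 in Ercc1 DR against Ercc1 AL. As deposited, both copies thus had the same order of libraries. After rescaling, the log2 ratio in Ercc1 DR against wt AL was -0.49 for Gstp2, with intervals apart, and -0.01 for Gstp1, with intervals that overlapped. Gstp1 was 1.37 times the Gstp2 level in wt AL, 1.37 times in Ercc1 AL and 1.93 times in Ercc1 DR. Summed, they came to 147, 293 and 221 FPKM, and after rescaling the sum in Ercc1 DR was 0.596 of that in Ercc1 AL. Gstp1 relative to Gstm1 was 1.36 in wt AL, 2.21 in Ercc1 AL and 0.538 in Ercc1 DR, so that the gene with the higher FPKM of the pair was Gstp1 in both ad libitum libraries and Gstm1 under restriction.

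Gstt1, a theta class gene (chr10:75783813-75798584, minus strand), was at 11.3 FPKM in wt AL (8.63 to 10.5), 13.6 FPKM in Ercc1 AL (10.5 to 12.2) and 30.3 FPKM in Ercc1 DR (23.6 to 26.3). The restricted library was the highest. Its log2 ratio in Ercc1 DR against Ercc1 AL was 0.78 (0.59 to 0.93), under the 2-fold threshold, and 1.10 as deposited. Between the ad libitum libraries it was -0.21 after rescaling and 0.24 as deposited.

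**Figure D3:**
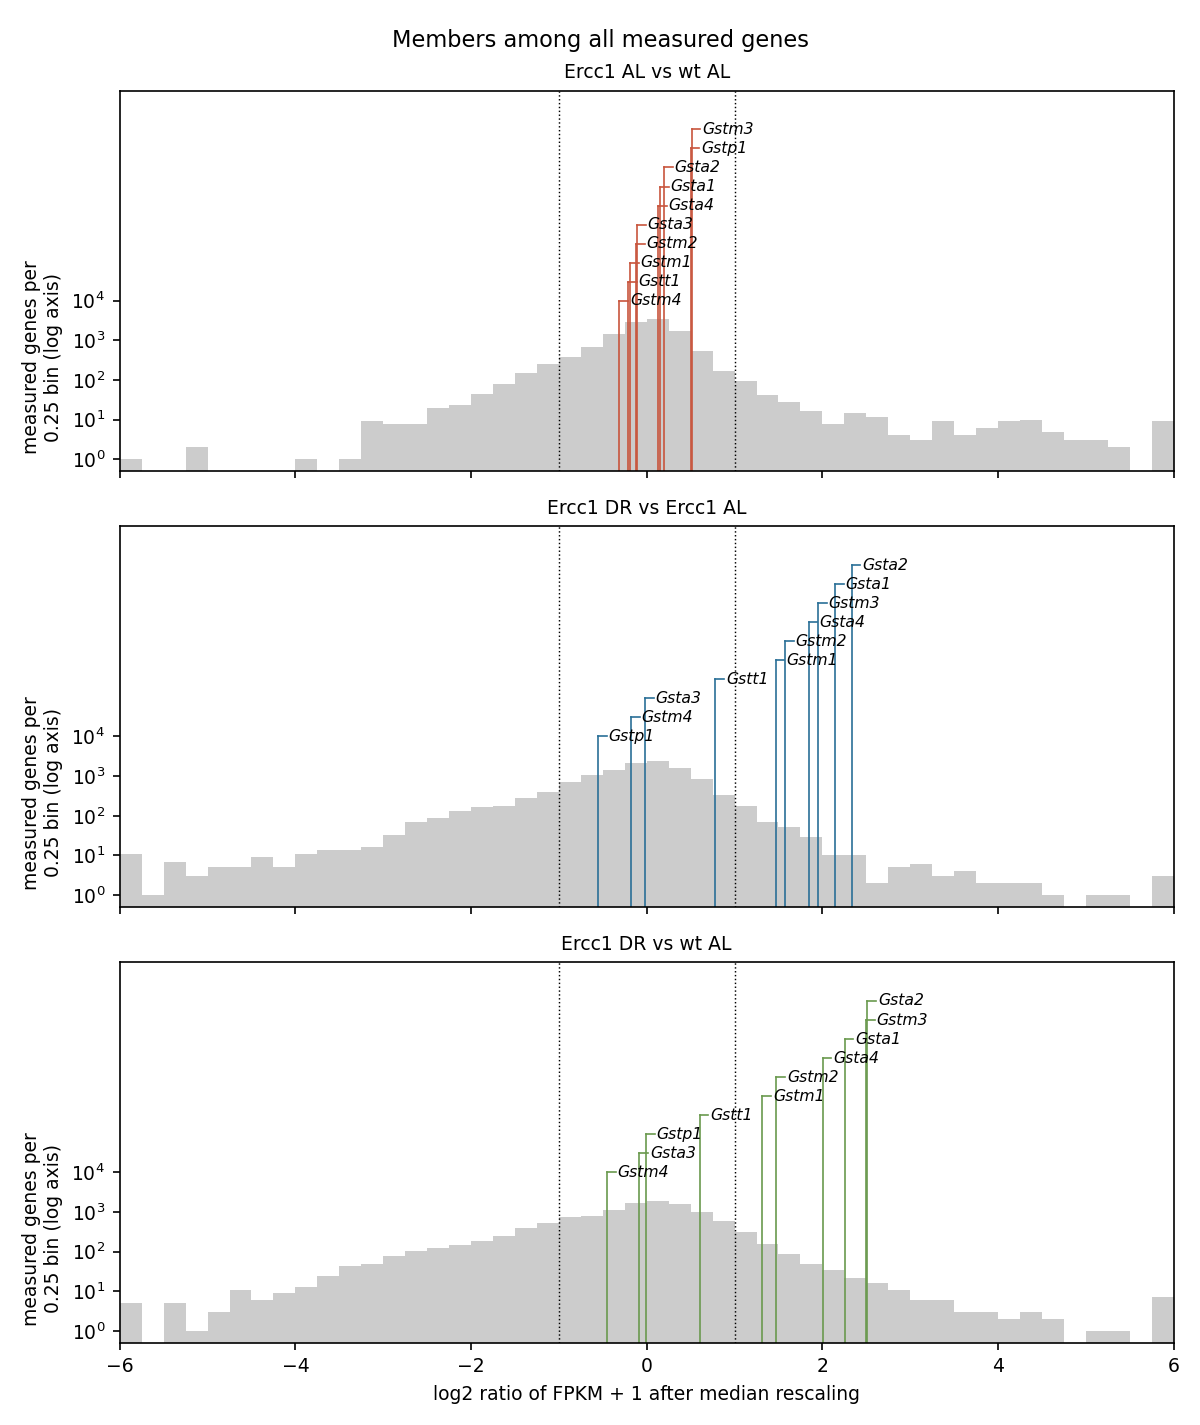
Log2 ratio of each gene after median rescaling (horizontal axis) in the 3 comparisons, as labelled lines over the number of measured genes per bin of 0.25 (log axis, grey bars, the end bins holding all genes beyond). Dotted lines mark the 2-fold threshold. In Ercc1 AL vs wt AL all 10 lie between -0.31 and 0.51, and in both comparisons of Ercc1 DR 6 of them lie beyond the right dotted line.

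Set against wt AL, genotype under free feeding went with small ratios in both directions. In Ercc1 AL the median of the 10 was 0.01 after rescaling, beside 0.01 over the 12294 measured genes, of which 2.30% were at least 2-fold higher and 4.90% lower. As deposited the median was 0.39, all 10 ratios were above 0, and 5.70% of all genes were higher and 2.20% lower. The rescaled intervals lay apart for 5 of the 10. Gstm3 and Gstp1 were above wt AL, where 24.2% of genes with intervals had intervals apart in that direction, and Gsta3, Gstm1 and Gstm4 were below, where 27.8% did. Those 3 were above wt AL as deposited. The count is near the share for all genes.

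In Ercc1 DR against Ercc1 AL, which addresses diet within the mutant, 7 of the 10 had rescaled intervals apart and above, the 6 named genes and Gstt1, and Gstp1 was apart and below. Among all genes 29.6% were apart and above and 38.4% below. In Ercc1 DR against wt AL, 6 of the 10 passed 2-fold upward and none downward, with a median of 1.40. Gsta1, 1 of the 6, was at 0.845 FPKM in wt AL. It was measured there only through Ercc1 DR, so a high value was needed for it to be counted. Of all 12054 genes measured there, 5.93% were higher and 16.4% lower. As deposited 7 were higher, beside 24.1% of all genes, with 8.56% of all genes lower. Rescaled intervals were apart and above for 7 of the 10, beside 33.8% of genes, and apart and below for 2, Gsta3 and Gstm4, beside 38.3%. The same 6 genes are counted in both comparisons, which share the Ercc1 DR library and are not independent. Gstm3 ranked 62nd of 12054 genes in this comparison, at 2.50, and Gstm1 356th, at 1.32.

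Other cell type markers also differed between these libraries. As deposited, the 8 endothelial markers summed to 29.2 FPKM in wt AL, 23.0 in Ercc1 AL and 13.2 in Ercc1 DR. In Ercc1 DR against Ercc1 AL, 1 of 8 was lower, a count near the 11.9% of all genes that were lower. None was higher, and the median log2 ratio was -0.69, beside -0.06 over all genes. The 9 hepatocyte markers with an estimate summed to 2492, 2987 and 6306 FPKM as deposited. In that comparison 3 of 9 were higher, beside 3.07% of all genes, and none was lower, with a median of 0.50. No measured macrophage or stellate cell marker was past 2-fold there, with medians of -0.64 and -0.56. The stellate cell markers summed to 23.1, 36.9 and 40.1 FPKM as deposited. None of the endothelial and hepatocyte markers was at 0 in any library. In bulk tissue, fewer cells of a type and less RNA per cell cannot be told apart, and the part of cell make-up in the values of the transferases was not tested.

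The ratios were set out by position, because alpha, mu, theta and pi genes each sit beside relatives. In the mu cluster, which spans 149 kb and holds 7 genes in the table, Gstm3, Gstm2 and Gstm1 are consecutive, and their log2 ratios in Ercc1 DR against Ercc1 AL were 1.95, 1.57 and 1.47. The genes on one side of them, Gstm5, Gstm7 and Gstm6, were at 0.36, 0.51 and 0.41, and Gstm4 on the other side was at -0.18. In the alpha cluster of 155 kb, all 5 transferase genes were between 1.64 and 2.33. Gsta1, Gsta2, Gm3776 and Gm10639 among them are the close copies named above, so their values are not separate observations. Gm10639, at 1.64, was measured only through Ercc1 DR. Gsta4, which shares no stretch of 50 bases with another gene, was at 1.84. Omt2a, an oocyte gene between Gm10639 and Gsta2, was at -0.48, with 1.16 FPKM in both ad libitum libraries and 0.734 in Ercc1 DR. In the theta cluster, Gstt3 was at 3.004, above its neighbour Gstt1 at 0.78, and Gstt2 was at 0.39.

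Of 21 other transferases listed, 19 were measured in Ercc1 DR against Ercc1 AL, and 4 were at least 2-fold higher and 1 lower, with a median of 0.36. As deposited 6 were higher and none lower, with a median of 0.65. The shares of all genes were 3.07% higher and 11.9% lower, and 6.47% and 8.65% as deposited. The 4 were Gstt3 (1.66 to 24.7 FPKM), the copies Gm3776 (1.41 to 11.6 FPKM) and Gm10639 (0.862 to 5.75 FPKM), and Gsto1 (11.6 to 33.6 FPKM), an omega class enzyme that reduces dehydroascorbate. Gm10639 was measured only through Ercc1 DR. Gstp2 was the lower one, at -1.04 after rescaling and -0.70 as deposited, where it was within 2-fold. Mgst1, the microsomal transferase, had the highest level of all transferases measured, at 420.2, 591 and 642 FPKM in the same order, with a log2 ratio of -0.22 in Ercc1 DR against Ercc1 AL and 0.12 as deposited. Gstz1, which also acts in tyrosine breakdown, was at 51.0, 62.9 and 92.9 FPKM, with a ratio of 0.22 in Ercc1 DR against Ercc1 AL.

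Genes that make, recycle and use glutathione stayed within 2-fold in nearly all cases. Their counts past 2-fold are near the shares for all genes in Ercc1 DR against Ercc1 AL. These shares were 3.07% higher and 11.9% lower, and 6.47% and 8.65% as deposited. Of 12 measured genes of glutathione synthesis, recycling and peroxidases, none was higher and 1 was lower in Ercc1 DR against Ercc1 AL, with a median of -0.01, beside -0.06 over all genes. The one was Gpx3, a secreted peroxidase, at 0.957 against 2.55 FPKM, a log2 ratio of -1.06. As deposited its ratio was -0.86, none of the 12 was past 2-fold and the median was 0.28. Gpx3 was also measured only through Ercc1 AL. Gss, the glutathione synthetase, was at 9.15 against 4.46 FPKM, a ratio of 0.60, and Glrx, a glutaredoxin, at 17.1 against 9.92 FPKM, a ratio of 0.42. Of 12 measured genes of conjugate breakdown and export, 1 was lower and none higher, with a median of -0.07, and as deposited 1 was higher and 1 lower, with a median of 0.15. The lower one was Ggt1, the gamma-glutamyl transferase that opens glutathione breakdown, at 1.25 against 3.79 FPKM. Abcc1, an exporter of conjugates, was at 0.748 against 1.90 FPKM, a ratio of -0.91.

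Regulators and their other targets were read in the same comparison. Among all genes measured there, 3.07% were higher and 11.9% lower, and 6.47% and 8.65% as deposited. Of 20 regulators, 1 was higher and 1 lower, with a median of 0.03. Nfe2l2, the gene of NRF2, was at 13.6 FPKM in Ercc1 AL and 15.02 in Ercc1 DR, Nr1i3 (CAR) at 7.003 and 8.11, and Nr1i2 (PXR) at 5.30 and 6.59. Their log2 ratios were -0.18, -0.11 and -0.02 after rescaling, and 0.13, 0.19 and 0.27 as deposited. Cul3, whose protein is the scaffold of the ligase that degrades NRF2, was the higher one, at 17.4 against 6.19 FPKM, and Fos the lower, at 1.55 against 4.31 FPKM. Of 18 measured NRF2 targets outside glutathione genes, 2 were higher and 1 lower, with a median of 0.04. Cbr1, a carbonyl reductase, was at 66.8 against 14.2 FPKM, Srxn1, the sulfiredoxin, at 8.47 against 2.72 FPKM, and Osgin1 at 4.30 against 14.4 FPKM. Nqo1, a quinone reductase, was at 4.35 against 1.77 FPKM, a ratio of 0.70. Of 20 measured CAR and PXR targets, 17 were higher and none lower, with a median of 1.56, and 18 were higher as deposited. Of the 20, 5 reached 1 FPKM through Ercc1 DR alone, namely Cyp2b9, Cyp2b10, Cyp2b13, Sult1e1 and Sult2a1, so that a high value there was needed for them to be measured. Without these 5, 13 of 15 were higher and none lower. Of all 17, Cyp2c39 was at 129 against 3.33 FPKM, Cyp2c38 at 40.1 against 1.13, the sulfotransferase Sult1e1 at 30.1 against 0.905 and the transporter Slco1a4 at 56.9 against 3.601. AHR targets had 3 measured genes, none past the threshold, with a median of 0.03. Cyp1a1, measured only through Ercc1 AL, was at 0.766 against 1.42 FPKM, a ratio of -0.63. Tiparp was at 3.07 against 1.17 FPKM, a ratio of 0.69, and Cyp1a2 at 10.1 against 7.83 FPKM, a ratio of 0.03.

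In the ad libitum comparison, CAR and PXR targets had 1 of 16 measured genes higher and 5 lower in Ercc1 AL against wt AL, with a median of -0.32. Among all genes measured there, 2.30% were higher and 4.90% lower, and 5.70% and 2.20% as deposited. Cyp2b9, 1 of the 5, was measured only through wt AL. Without it 1 of 15 was higher and 4 lower, with a median of -0.22. As deposited 2 of the 16 were higher and 4 lower, with a median of 0.15, so the sign of the median depends on the scaling. NRF2 targets had 1 of 18 higher and 3 lower, with a median of 0.01, and 1 higher and 1 lower as deposited, with a median of 0.39. None of the 10 transferases was past the threshold in that comparison.

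Zonation was read from lists of pericentral and periportal genes, since mu transferases are known to be richer around the central vein. Among all genes in Ercc1 DR against Ercc1 AL, 3.07% were higher and 11.9% lower, and 6.47% and 8.65% as deposited. Of 11 measured pericentral genes none was past 2-fold in Ercc1 DR against Ercc1 AL, and the median was 0.03, with Cyp2e1 at 2431 against 1164 FPKM, a ratio of 0.73, and Oat at 0.96. As deposited these 2 genes passed 2-fold, at 1.06 and 1.29, and the median was 0.33. Of 12 periportal genes 5 were higher and none lower, with a median of 0.65, and as deposited 6 were higher, with a median of 0.97. Sds, the serine dehydratase, was at 112 against 14.3 FPKM, and Arg1, Hal and Cps1 had ratios of 1.55, 1.89 and 1.60. The part of zonation in the values of the transferases was not tested.

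**Figure D4:**
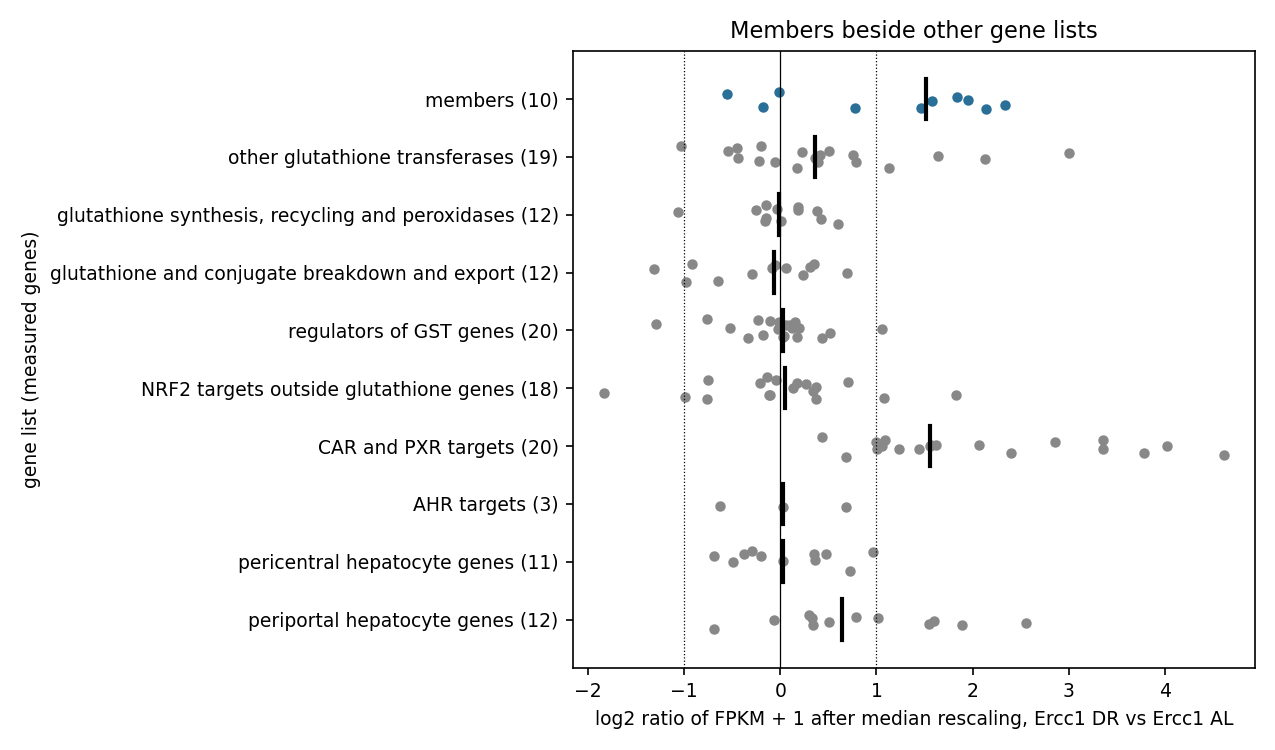
Log2 ratio after median rescaling in Ercc1 DR vs Ercc1 AL (horizontal axis) for the 10 members (blue) and the genes of 9 other lists (grey), with the median of each list as a black bar and the number of measured genes in brackets. The members' median is 1.52 and that of CAR and PXR targets 1.56, that of periportal genes is 0.65 and that of other transferases 0.36. The medians for glutathione synthesis, glutathione breakdown, regulators and NRF2 targets lie between -0.07 and 0.04, and those of pericentral genes and AHR targets are 0.03.

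The promoter windows were searched for 2 motifs of stress-responsive regulation, on both strands. They were the core of the antioxidant response element, TGACNNNGC, and the AP-1 motif, TGANTCA. A stretch that begins TGAC can hold both, so matches could overlap. A window was found for 9 of the 10 genes, all but Gsta4, and 11 windows in all. The antioxidant core was in a window of 1 gene, Gsta3, and in 12.4% of all 32851 RefSeq windows of that length. The AP-1 motif was in a window of 1 gene, Gstp1, and in 7.81% of all windows. Neither was in the windows of the other 7 genes, which says only that these letters are not in that stretch. The windows of Gsta3 and Gstp1 are shown, with the match in capitals, as the 2 members with a match.
Gsta3 (chr1:21240335-21240634, plus strand): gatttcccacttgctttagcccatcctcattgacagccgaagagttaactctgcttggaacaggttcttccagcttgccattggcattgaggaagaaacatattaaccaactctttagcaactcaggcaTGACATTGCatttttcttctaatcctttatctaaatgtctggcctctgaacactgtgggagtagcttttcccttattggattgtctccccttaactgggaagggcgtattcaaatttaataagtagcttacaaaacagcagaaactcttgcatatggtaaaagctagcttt
Gstp1 (chr19:4037863-4038162, minus strand): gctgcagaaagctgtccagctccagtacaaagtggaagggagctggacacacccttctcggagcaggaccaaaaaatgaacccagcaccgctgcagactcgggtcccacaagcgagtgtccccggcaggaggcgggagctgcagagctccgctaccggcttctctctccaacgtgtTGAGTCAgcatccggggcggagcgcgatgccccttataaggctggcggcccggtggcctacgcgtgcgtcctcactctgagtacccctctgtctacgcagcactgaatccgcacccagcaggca
The match in Gsta3 began 121 bases before the start and the match in Gstp1 began 74 bases before it. Neither gene was among the 6 that were higher under restriction, and Gsta4, which was, had no window to search. The part of these motifs in the values of the transferases was not tested.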

How the data were processed

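Liver RNA of 3 mouse libraries, 1 per group, was analysed from the deposited tables. The authors' values are FPKM with a lower and an upper bound, per the file headers, in 23850 rows per library, and reads were placed on mm10, per the submitters' processing notes. RNA was depleted of ribosomal RNA and made into TruSeq libraries, per the labels' protocols. The level of the bounds was, like the tool, the annotation and the use of strand, not given in the sources used here. Rows with the status HIDATA or FAIL were treated as missing, and where a symbol had several rows, the one with the highest mean was kept. The deposited start counts from 0, and printed starts count from 1.

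Log2 ratios of FPKM + 1 were computed for genes with at least 1 FPKM in either library, each library of a pair being moved by equal parts of the median log2 ratio over 9053 genes. With 1 library per group no test was made. Depth was estimated on the assumption that a bound lies 2 SD away from the centre, and bounds lay 1.60% to 32.7% from the centre for the 10 genes. In 9.70% to 13.0% of rows, and for 6 to 8 of the 10 genes, the FPKM was not between its own bounds. The code was tested on simulated data with planted ratios. Sequences and coding identity came from RefSeq GRCm38.p6 and GENCODE M21, by global alignment with Biopython 1.88, and Python 3.11.15 and pandas 2.3.3 were used. Protein identity was planned, and identity of coding sequence was used in its place.

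The genes named were all 10 members and, from each list, up to 4 with the largest ratios in any comparison, with a few other genes chosen after their values were seen. The members, lists and tests were chosen with earlier results of these data known. Alternatives were another scaling, pseudocount, value, filter and treatment of repeated symbols, and a sum over close copies was added after the data were seen.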

Additional observations from a re-analysis of the deposited data

How the results depend on the processing

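Among the 10 genes, the counts past 2-fold were within 1.5 times of those reported in each of 9 alternatives and 3 comparisons. The 54 alternative values of the 6 genes called higher in Ercc1 DR against Ercc1 AL, and the 54 against wt AL, all stayed past the threshold with the same sign. Part of these values could hardly differ from the main ones. A change of filter leaves the ratio of a measured gene as it was, and no member had more than 1 row to sum. Close copies were summed only into Gsta1, Gsta2 and Gstp1. Only the changes of scaling, pseudocount and value could move all 6 genes. Without rescaling, the median of the 10 genes was 0.39 in Ercc1 AL against wt AL, 1.85 in Ercc1 DR against Ercc1 AL and 2.16 in Ercc1 DR against wt AL, and Gstt1 came past the threshold at 1.10 and 1.34 in the last 2. Ratios near 0 changed sign in 7, 2 and 4 of the alternative values of the 3 comparisons, 10 of these without rescaling. Among all genes past 2-fold in Ercc1 AL against wt AL, 283 were higher and 602 lower, and 701 and 270 as deposited. In Ercc1 DR against Ercc1 AL these were 378 and 1467, and 796 and 1063 as deposited, and in Ercc1 DR against wt AL 715 and 1978, and 2902 and 1032. Other counts over all genes moved by over 1.5 times too. In Ercc1 AL against wt AL, 433 were higher and 1012 lower with a pseudocount of 0.1, 454 and 1072 with none, 175 higher from interval midpoints and 382 lower with at least 5 FPKM. In Ercc1 DR against Ercc1 AL, 2550 were lower with a pseudocount of 0.1 and 2650 with none. In Ercc1 DR against wt AL, 1159 were higher with a pseudocount of 0.1, 1210 with none, and 1067 lower with at least 5 FPKM. That minimum leaves fewer genes, and the share that was higher went from 2.30% to 5.82%, from 3.07% to 6.70% and from 5.93% to 12.9% in the 3 comparisons, and the share that was lower from 4.90% to 8.85%, from 11.9% to 19.8% and from 16.4% to 20.5%. With Gstp2 summed in, Gstp1 stood at -0.74 in Ercc1 DR against Ercc1 AL. No paired analysis was possible because each group has 1 library. No library could be left out for the same reason, so how far animals of 1 group differ is unknown. Depth limits the low genes most, as the bounds of Gsta1 in wt AL lay 32.7% from their centre.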

Other observations

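Gstt3, a theta class gene beside Gstt1, was at 2.89 FPKM in wt AL, 1.66 in Ercc1 AL and 24.7 in Ercc1 DR, and it ranked 25th of 12295 genes in Ercc1 DR against Ercc1 AL. It was chosen after its values were seen. Gstt1 was 3.92 times the Gstt3 level in wt AL, 8.17 times in Ercc1 AL and 1.22 times in Ercc1 DR. Gstt2, at the other end of the cluster, was at 2.42, 6.56 and 11.2 FPKM, with its highest ratio between rescaled libraries in Ercc1 DR against wt AL, at 1.19.

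The deposited FPKM of several genes stood in a nearly fixed ratio to the midpoint of the interval across the 3 libraries. For Gstp1 it was 1.35, 1.36 and 1.36, in the order wt AL, Ercc1 AL, Ercc1 DR, and for Gstm1 1.16, 1.17 and 1.18. For Gsta2 it was less even, at 1.09, 1.22 and 1.26.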
